A study of Caenorhabditis elegans with 66 samples.

Results

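The genes described here encode proteins of the mitochondrial ribosome and of the respiratory chain of *Caenorhabditis elegans*. They were chosen by name, as the nuclear genes named *mrpl-*, *mrps-*, *nuo-*, *cox-* or *atp-* followed by a number or a capital letter. There were 94 of them among the 46740 genes of each table. The *mrpl* genes (named for the large subunit of the mitochondrial ribosome) numbered 40, and the *mrps* genes (named for the small subunit) 29. The others were 6 *nuo* genes (complex I), 14 *cox* genes (complex IV and its assembly) and 5 *atp* genes (complex V, the ATP synthase). A further 2 names that fit the rule had no row in the tables. The values come from whole animals grown at 20 °C. PolyA-selected RNA of *rpb-9 (mj261)* animals was compared with that of wild-type animals, and ribosomal RNA-depleted (Ribo-Zero) RNA of *prg-1 (n4357)* animals with that of their own wild type, with 3 libraries per genotype. The tables name strains and not genotypes, and by elimination sx1316 was taken as wild type, sx1902 as *rpb-9 (mj261)* and SX1888 as *prg-1 (n4357)*. The *mj261* allele is a premature stop codon in RPB-9, a subunit of RNA polymerase II, and PRG-1 is the Piwi protein that binds piRNAs. The 2 tables hold different wild-type libraries. The study names 3 biological replicates per genotype in a legend on RNA polymerase II binding, which also mentions the polyA libraries in brackets. Elsewhere it gives only n = 3 for its polyA libraries. Separate cultures are not stated for either table, so p-values measure the spread between these libraries, which may be technical.

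Mitochondria keep their own small genome, which encodes a few core subunits of the respiratory chain, and they translate it on a ribosome whose proteins are encoded in the nucleus. Complex I (NADH dehydrogenase) and complex IV (cytochrome c oxidase) pump protons out of the matrix, and complex V uses the resulting gradient to make ATP. In *C. elegans*, lowered expression of respiratory chain or mitochondrial ribosomal protein genes is known to extend lifespan and to induce the mitochondrial unfolded protein response, and mitochondria multiply strongly in the developing germline.

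The members were expressed in both tables, and all 94 passed the filter on low counts in each. The polyA libraries held between 24089008 and 36206726 counts and the Ribo-Zero libraries between 6099453 and 9881058, of which ribosomal RNA genes took 0.508% to 7.93% and 34.2% to 48.4%. The library labelled *rpb-9* replicate 1 lay with the other *rpb-9* libraries on the first principal component (75.7% of the variance). It was at 54.1 there, against 54.7 and 58.1 in those libraries and −59.3 to −52 in wild type. On the second component (11.5%) it stood apart from them. It held *rpb-9* itself at 41.7 CPM (read counts scaled to a common library size with TMM factors). The other mutant libraries held 26.3 and 24.9, and wild type 37.3 to 47.8. A stop codon need not lower the count of its gene, so these levels of *rpb-9* do not check the label. The *prg-1* gene was at 57.9 ± 3.38 CPM (SD, n = 3) in *prg-1* and at 167.0 ± 8.26 CPM (SD, n = 3) in wild type. The library labelled *prg-1* replicate 3 nevertheless lay with the wild-type libraries on the first principal component. Genes of the mitochondrial DNA, 36 rows in each table, had 0 counts in every library, so the mitochondrially encoded partners of these proteins could not be compared.

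None of the 94 members lay on the X chromosome, which holds 13.5% of the coding genes. Chromosome III held 29 of them and 13.2% of the coding genes. The counting used no strand option, and 19 members have exons that overlap exons of another gene, so reads in the shared bases cannot be assigned to 1 gene. The overlap passed 10% of the exon bases in 4 of them, and was largest for *mrps-18A*, which shares 40.1% with *iglr-2*.

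Levels per length differed by class. In wild-type polyA libraries the median level was 58.3 CPM per kb of exon for *mrpl*, 61.9 for *mrps*, 138.0 for *nuo*, 151.0 for *cox* and 392.0 for *atp*. The ribosomal protein genes lay within a narrow band, from 25.9 CPM per kb to 122.0 for *mrpl-11*. The *mrps* gene with the highest level was *mrps-11*, at 95.1 CPM per kb. The highest level of all members was that of *atp-2* (the beta subunit of the ATP synthase), at 1180 CPM per kb. Among *cox* genes, *cox-5A*, a nuclear-encoded structural subunit of complex IV, was highest at 446.0 CPM per kb, and *cox-10*, the heme O synthase that prepares the heme of complex IV, was lowest at 8.28. The highest *nuo* gene was *nuo-1*, the flavin-binding subunit of complex I, at 234.0 CPM per kb.

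**Figure D1:**
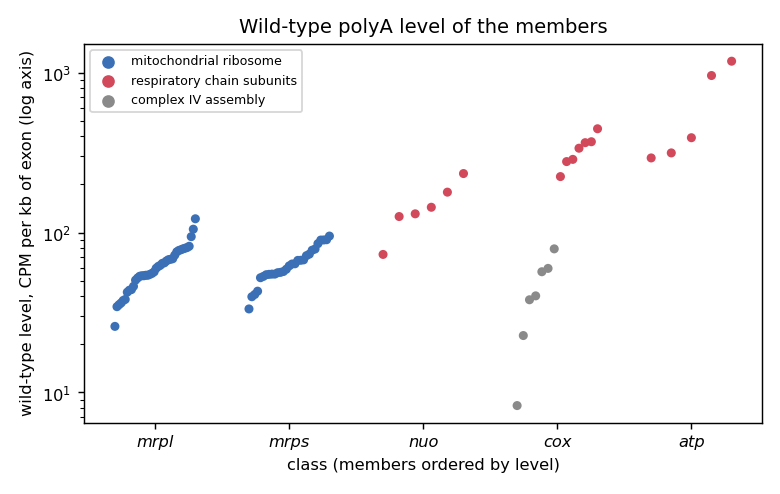
Wild-type level of each member in the polyA libraries, as CPM per kb of exon on a log axis (mean of 3 libraries), by class. Points are genes ordered by level and coloured by role. The *mrpl* and *mrps* genes lie between 25.9 and 122.0 CPM per kb, and the *atp* genes between 293.0 and 1180.

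In polyA libraries, the members changed little in *rpb-9* mutants. With the edgeR quasi-likelihood F test and p-values adjusted by Benjamini-Hochberg over all 14275 genes, 2 of 94 members were higher and 15 lower at an adjusted p-value under 0.05, 17 in all. Of all genes tested, 29.5% were higher and 21.3% lower, or 50.8% in either direction. Past the threshold of the study, an adjusted p-value under 0.01 and a change of at least 2-fold in size, there were 0 members, against 15.3% of all genes. At an unadjusted p-value under 0.05 there were 28 members, and DESeq2 also put 0 members past the threshold of the study. The median log2 fold change of the members was −0.19, with a range from −0.72 to 0.54, beside a median of 0.14 over all genes tested. Mutant and wild-type libraries were fully separated for 39 of 94 members, or 41.5%, against 60.7% of all genes.

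The genes of the mitochondrial ribosome and those of the respiratory chain lay on different sides of that median. Of the 69 ribosomal protein genes, 0 were called higher and 12, or 17.4%, lower. Of all genes, 29.5% were called higher and 21.3% lower, so the share called lower was below that of all genes. A log2 fold change below 0 was found for 66 of the 69, and for 6228 of the 14275 genes tested. DESeq2 called 0 of the 69 higher as well, and 19 of them had an unadjusted p-value under 0.05 in either direction. Their median was −0.21. The 18 structural subunits of complexes I, IV and V had 2 genes higher and 1 lower, and 13 had a log2 fold change above 0, with a median of 0.19. The 7 *cox* genes for assembly of complex IV (*cox-10*, *cox-11*, *cox-14*, *cox-15*, *cox-17*, *cox-18* and *cox-19*) had a median of −0.23, with 2 called lower. The division of the *cox* class into subunits and assembly genes follows their known roles and was made after the values had been seen, so these medians are a description. By class alone, the medians were −0.21 for *mrpl*, −0.20 for *mrps*, 0.07 for *nuo*, 0.01 for *cox* and 0.08 for *atp*.

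**Figure D2:**
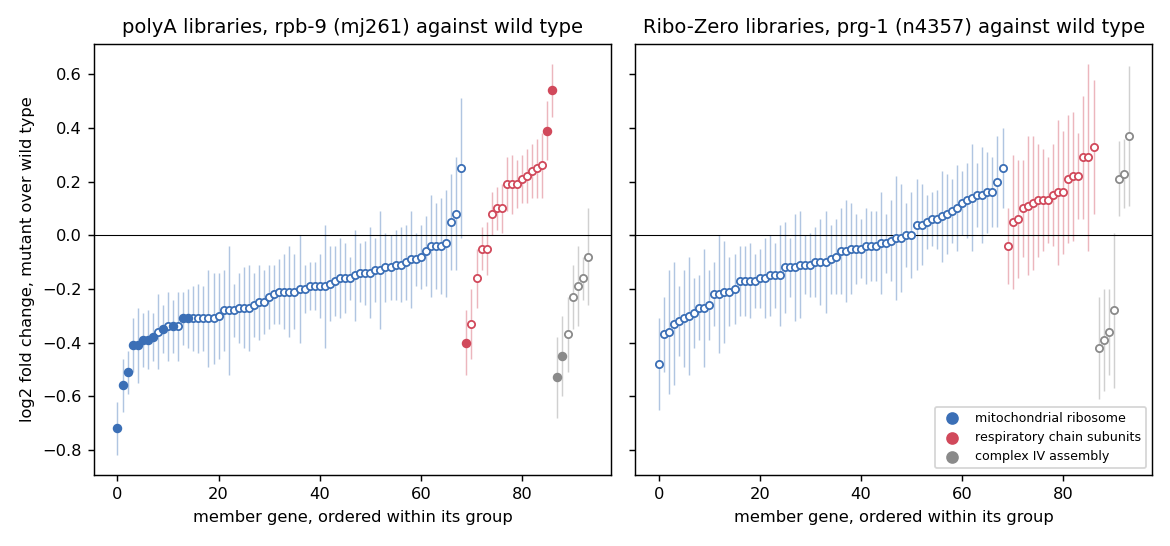
Log2 fold change of each of the 94 members with its standard error, for *rpb-9* in polyA libraries (left) and *prg-1* in Ribo-Zero libraries (right), ordered within each group. Filled points passed an adjusted p-value of 0.05 in edgeR's test. On the left, 66 of 69 ribosomal protein genes lie below 0 and 13 of 18 respiratory subunits above it under TMM scaling, and on the right no point is filled.

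The direction of the ribosomal protein genes depended on the scaling, and the count of lower members moved by over 1.5 times with each library left out. With TMM factors, the median over the 69 genes relative to the wild-type mean was 0.02 in *rpb-9* replicate 1, −0.41 in replicate 2 and −0.30 in replicate 3, on the log2(CPM + 0.5) scale. Replicate 1 was therefore at the wild-type level, where the libraries lay between −0.03 and 0.04. Without *rpb-9* replicate 1, 60 members were called lower and 6 higher, against 29.0% and 34.9% of all genes. Leaving out any other library gave 3 to 7 lower members of 94, with 11.7% to 17.3% of all genes lower and 21.2% to 26.5% higher in those fits, below the 21.3% and 29.5% of the full set. There were 7 lower members for *rpb-9* replicate 2, 6 for wild-type replicate 1 and 3 for *rpb-9* replicate 3 and for wild-type replicates 2 and 3. Higher members then numbered 7 without *rpb-9* replicate 2, 2 without *rpb-9* replicate 3 or wild-type replicate 2, and 1 without wild-type replicate 1 or 3. With library size alone in place of TMM, the median over all genes moved from 0.14 to 0.40, that of the ribosomal protein genes to 0.07 and that of the subunits to 0.46. Of all genes, 39.5% were then called higher and 6.49% lower. That scaling called 13 members higher, all of them structural subunits of the respiratory chain, and 1 lower, *mrpl-45*.

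The distance between both groups does not depend on the scaling within a library. The median of the 18 subunits minus that of the 69 ribosomal protein genes was 0.01, 0.00 and −0.03 in the wild-type libraries, which are centred on their own mean. In the *rpb-9* libraries it was 0.31, 0.46 and 0.45. All 3 mutant libraries thus lay above all wild-type libraries. No test was run on this difference, since the split was made with the values known.

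**Figure D3:**
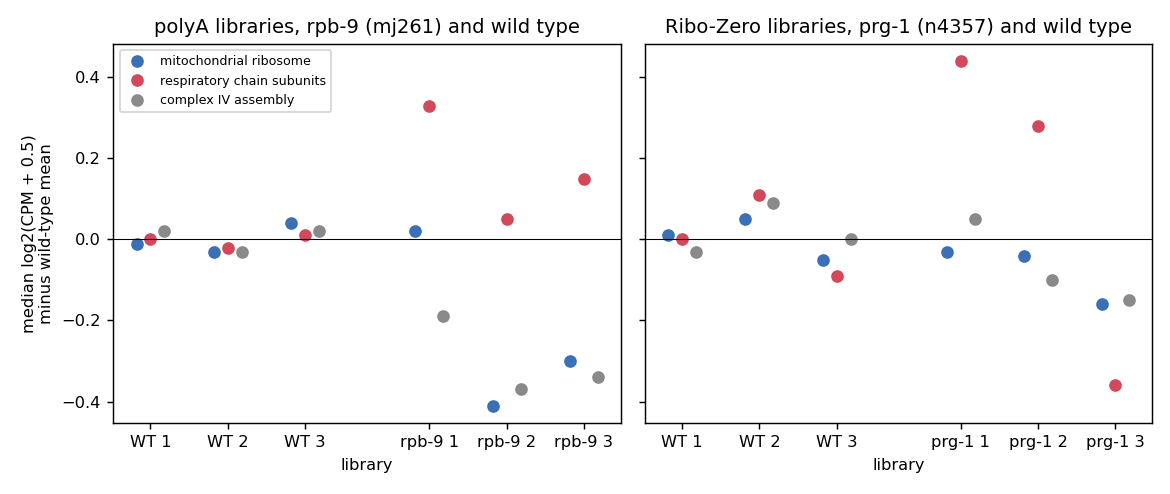
Median over the genes of each group in each library, as log2(CPM + 0.5) minus the wild-type mean of each gene, for the polyA (left) and Ribo-Zero (right) libraries, with 1 point per group and library. The subunits lie above the ribosomal protein genes in all 3 *rpb-9* libraries, by 0.31 to 0.46, and in *prg-1* replicates 1 and 2, but below them in *prg-1* replicate 3.

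Among the large-subunit ribosomal proteins, *mrpl-45* (chromosome III, 1196389 to 1202008, WBcel235) changed most. Its protein belongs to a family that in mammals helps to anchor the mitochondrial ribosome to the inner membrane. Its level was 78.1, 65.6 and 66.4 CPM in the wild-type libraries and 43.0, 44.2 and 40.6 CPM in the *rpb-9* libraries. The genotypes thus did not overlap, as was so for 60.7% of all genes. The log2 fold change was −0.72 (standard error 0.10, n = 3 per genotype, edgeR quasi-likelihood adjusted p = 0.00114, Benjamini-Hochberg). It was called lower under all 12 alternative settings, with values from −0.81 to −0.46. The other *mrpl* genes called lower were *mrpl-1*, *mrpl-2*, *mrpl-12*, *mrpl-15*, *mrpl-19* and *mrpl-39*, with log2 fold changes from −0.41 to −0.31. None of these was called with library size alone, or without wild-type replicate 2 or 3 or *rpb-9* replicate 3. Without wild-type replicate 1, and likewise without *rpb-9* replicate 2, only *mrpl-19* of them was called. *mrpl-12* and *mrpl-39* were also not called with no filter, without ribosomal RNA genes or with the replicate number as a block. *mrpl-2* was also not called with no filter. The smallest change in the class was that of *mrpl-55*, at −0.03.

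Among the *mrps* genes, *mrps-31* and *mrps-30* changed most. The level of *mrps-31* was 50.4, 46.8 and 51.2 CPM in wild type and 32.9, 32.5 and 35.2 CPM in *rpb-9*. Its log2 fold change was −0.56 (standard error 0.10, n = 3 per genotype, edgeR quasi-likelihood adjusted p = 0.0026). The level of *mrps-30* was 133.0, 126.0 and 136.0 CPM in wild type and 92.6, 92.3 and 92.0 CPM in *rpb-9*. Both genes separated the genotypes without overlap, as did 60.7% of all genes. For both, the library labelled *rpb-9* replicate 1 was as low as the others. The log2 fold change of *mrps-30*, whose mammalian counterpart sits in the large subunit in spite of its name, was −0.51 (standard error 0.08, n = 3 per genotype, edgeR quasi-likelihood adjusted p = 0.00129). Both were called under every alternative except library size alone. The others called lower were *mrps-11*, *mrps-25* and *mrps-26*, none of them with library size alone. *mrps-11* was called under 3 of 12 alternatives. The call of *mrps-25* was also lost without ribosomal RNA genes, with the replicate number as a block, and without any 1 library other than *rpb-9* replicate 1. That of *mrps-26* was also lost without wild-type replicate 2 or 3 or *rpb-9* replicate 3. The highest value in the class was that of *mrps-33*, at 0.25 with a standard error of 0.26 and an adjusted p of 0.445 in edgeR's test. It rested on *rpb-9* replicate 1, at 55.6 CPM, against 26.0 and 31 CPM in the other mutant libraries and 29.5 to 35.2 in wild type.

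The 4 genes named for the small-subunit protein S18 were not called in either comparison. The log2 fold changes in *rpb-9* were −0.16 for *mrps-18A*, −0.11 for *mrps-18B*, −0.19 for *mrps-18C* and −0.16 for *mrps-18.C*. In *prg-1* they were −0.05, 0.12, −0.02 and 0.14 in the same order.

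Of the 7 complex IV subunits, 1 was called higher in *rpb-9* and 0 lower, against 29.5% and 21.3% of all genes. The subunit called higher was *cox-6C* (chromosome IV, 126731 to 127640), with 85.1, 90.7 and 89.7 CPM in wild type and 146.0, 121.0 and 121.0 CPM in *rpb-9*. Every mutant library lay above every wild-type library. The log2 fold change was 0.54 (standard error 0.10, n = 3 per genotype, edgeR quasi-likelihood adjusted p = 0.00316), and it was called higher under all 12 alternatives. The paralogous or like-named subunits had values of 0.22 for *cox-5A*, 0.24 for *cox-5B*, 0.25 for *cox-6A* and 0.26 for *cox-6B*, with adjusted p-values from 0.0725 to 0.107 in edgeR's test. For all 4, every mutant library lay above every wild-type library, and the genotypes were fully separated for 60.7% of all genes. The libraries overlapped for *cox-7C*, at 0.10 with an adjusted p of 0.339 in edgeR's test, and *cox-4* was at 0.19 with an adjusted p of 0.16.

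Of the 7 assembly genes, 2 were called lower and 0 higher, against 21.3% and 29.5% of all genes. The other values ran from −0.37 for *cox-18* to −0.08 for *cox-19*. Of 8 tested complex IV assembly genes with other names, 0 were called in either direction by edgeR (median −0.10), with 2 at an unadjusted p-value under 0.05, and DESeq2 called 2 lower. The copper chaperone gene *cox-17* had 16.5, 19.2 and 19.5 CPM in wild type and 14.8, 11.4 and 12.2 CPM in *rpb-9*. The genotypes did not overlap for *cox-17*, as for 60.7% of all genes. Its log2 fold change was −0.53 (standard error 0.15, n = 3 per genotype, edgeR quasi-likelihood adjusted p = 0.0198). The level of *cox-10* was 14.4, 11.5 and 11.9 CPM in wild type and 8.77, 9.36 and 9.48 CPM in *rpb-9*. Its log2 fold change was −0.45 (standard error 0.15, n = 3 per genotype, edgeR quasi-likelihood adjusted p = 0.0327). The call of *cox-17* was lost with library size alone, and without wild-type replicate 2 or 3 or *rpb-9* replicate 2 or 3. That of *cox-10* was lost without any 1 library other than *rpb-9* replicate 1. It was also lost with library size alone, no filter or the replicate number as a block, leaving 4 of 12 alternatives.

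Among complex I genes, *nuo-6*, the counterpart of the mammalian NDUFB4 subunit, was higher. It had 87.7, 98.5 and 97.0 CPM in wild type and 135.0, 108.0 and 128.0 CPM in *rpb-9*. The log2 fold change was 0.39 (standard error 0.11, n = 3 per genotype, edgeR quasi-likelihood adjusted p = 0.0165), and DESeq2 gave 0.30 with an adjusted p of 0.0666. Its call was also lost with DESeq2's size factors in edgeR and without wild-type replicate 1 or 3. The lowest value among *nuo* genes was that of *nuo-5*, at −0.16. For complex V, *atp-2* had 2430, 2250 and 2210 CPM in wild type and 1530, 1940 and 1750 CPM in *rpb-9*. Its log2 fold change was −0.40 (standard error 0.12, n = 3 per genotype, edgeR quasi-likelihood adjusted p = 0.0239). Its call was lost with library size alone, and without any 1 of the wild-type libraries or *rpb-9* replicate 3. The highest in that class was *atp-4*, at 0.19.

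**Figure D4:**
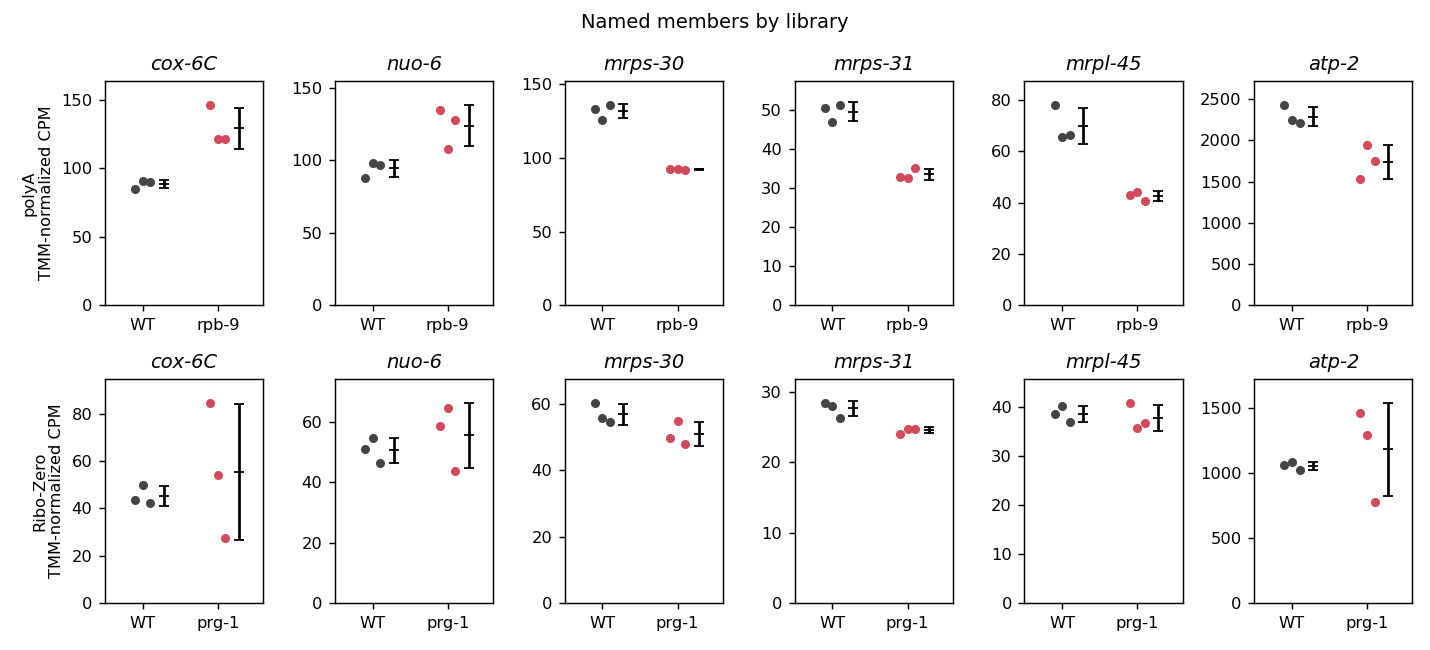
TMM-normalized CPM of 6 named members in each library, for polyA (top) and Ribo-Zero (bottom) libraries. Points are libraries, and the bars give the mean and SD of 3 libraries. In polyA libraries the genotypes do not overlap for any of the 6 genes, as for 60.7% of all genes. The Ribo-Zero values of *cox-6C* run from 27.4 to 84.6 within *prg-1*.

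Within the respiratory subunits, shorter genes had the higher fold changes in *rpb-9*. The correlation of log2 exon length with the log2 fold change across the 18 genes was −0.74 (Pearson) and −0.73 (Spearman). Across the 69 ribosomal protein genes it was −0.33 and −0.35. These points share libraries and were counted without reads across exon junctions, and genes are not independent replicates. In *prg-1* the same correlation across the 18 subunits was −0.24 by either measure.

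A pair of members lies in each of 2 close arrangements. *mrps-2* and *mrpl-4*, on the same strand of chromosome V with 105 bases between them, had log2 fold changes of −0.22 and −0.31 in *rpb-9*. *mrpl-1* and *mrps-24* lie on opposite strands of chromosome IV with 343 bases between them, and had −0.35 and 0.08, of which only that of *mrpl-1* was called.

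In Ribo-Zero libraries, no member was called between *prg-1* and wild type. Under edgeR's quasi-likelihood test, 0 of 94 members were called higher and 0 lower, against 0.899% and 0.263% of the 11794 genes tested (1.16% in either direction), and 0 passed the threshold of the study, against 0.119%. At an unadjusted p-value under 0.05 there were 3 members (*mrpl-19*, *mrpl-20* and *mrps-10*, all lower), and DESeq2 called 0. Mutant and wild-type libraries were fully separated for 17 members, or 18.1%, against 25% of all genes. The median log2 fold change was −0.04, beside 0.02 over all genes, and the median standard error of a member was 0.16 here and 0.12 in the polyA table. The median was −0.09 over the 69 ribosomal protein genes and 0.14 over the 18 subunits. With library size alone, which moved the median over all genes to 0.15, these were 0.03 and 0.22. The lowest value was that of *mrps-10*, at −0.48 with a standard error of 0.17. The lowest *mrpl* gene was *mrpl-20*, at −0.37, and the highest was *mrpl-13*, at 0.25. The *cox* genes ran from −0.42 for *cox-18* to 0.37 for *cox-19*, the *nuo* genes from −0.04 for *nuo-3* to 0.22 for *nuo-4*, and the *atp* genes from 0.06 for *atp-3* to 0.16 for *atp-2*.

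The counts for *prg-1* changed with the library labelled replicate 3. The median over the 18 subunits relative to the wild-type mean was 0.44 in *prg-1* replicate 1, 0.28 in replicate 2 and −0.36 in replicate 3. The corresponding medians of the 69 ribosomal protein genes were −0.03, −0.04 and −0.16. Without replicate 3, 6 members were called higher, all of them subunits (*cox-5A*, *cox-5B*, *cox-6A*, *cox-6B*, *cox-6C* and *nuo-4*), with log2 fold changes from 0.39 to 0.63 and adjusted p-values from 0.024 to 0.0415 in edgeR's test, and 0 were lower. In that fit 20 members had an unadjusted p-value under 0.05, and 13.9% of all genes were called higher and 10.1% lower. Leaving out any other library gave 0 calls in either direction, but at most 0.125% of all genes were called higher and 0.0179% lower in those fits, so these counts say nothing about the members. Without replicate 1 the median log2 fold change of the subunits was −0.01. The number of the replicate as a block also gave 0 members in either direction.

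Side by side, 15 members had a log2 fold change above 0 in both comparisons and 53 below 0 in both. Taken singly, 78 were below 0 in *rpb-9* and 54 in *prg-1*. Among the 18 subunits, 13 were above 0 in both. Singly, 13 were above 0 in *rpb-9* and 17 in *prg-1*, so the shared count was nearly fixed by these numbers. The correlation of the values across the 94 members was 0.54 (Pearson) and 0.53 (Spearman), a description over genes that share libraries within each table. Within the 69 ribosomal protein genes it was 0.27 and 0.32.

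**Figure D5:**
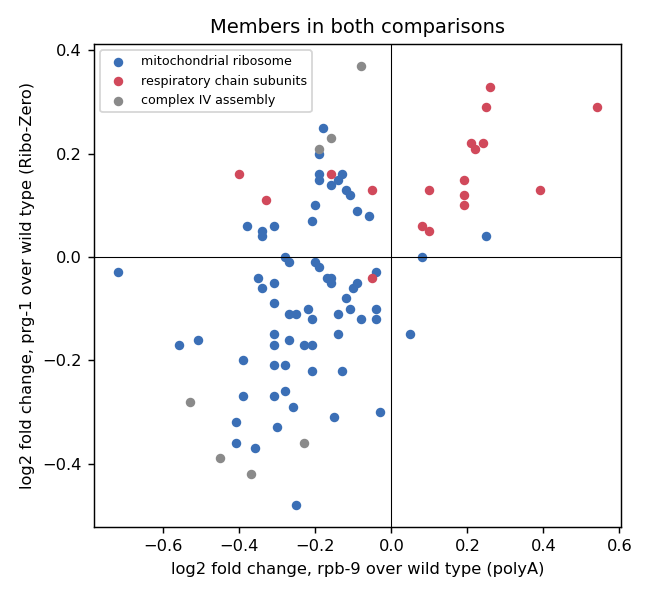
Log2 fold change of each member in *rpb-9* (polyA, x axis) against *prg-1* (Ribo-Zero, y axis), with 1 point per gene, coloured by role. Of 94 members, 53 lie in the lower left quadrant and 15 in the upper right. Taken singly, 78 lie below 0 in *rpb-9* and 54 in *prg-1*.

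Other genes of these pathways, from lists by known role, gave the surrounding picture in *rpb-9*, where 29.5% of all genes were higher and 21.3% lower. The 26 tested complex I genes with other names had 6 higher and 1 lower (median 0.19), and the 7 complex V genes with other names had 5 higher and 1 lower (median 0.49). The 11 genes of complex III and cytochrome c had 4 higher and 2 lower (median 0.10), and the 5 of complex II had 0 higher and 1 lower (median 0.08). Of 24 genes listed as mitochondrial translation factors and tRNA synthetases, 14 were tested, with 0 higher and 10 lower (median −0.31). They ran from *nars-2* at −0.56 to *tsfm-1* at 0.03. The 10 included *fars-3* (−0.42), for which the location of the protein in the cell was not checked. The 5 genes of mitochondrial DNA maintenance had 0 higher and 3 lower (median −0.46), with the polymerase gene *polg-1* at −0.71. The 14 genes of the mitochondrial stress response had 0 higher and 7 lower (median −0.27), with the chaperonin gene *hsp-60* at −0.86. Cytoplasmic ribosomal protein genes had 2 higher and 57 lower of 77 (median −0.41). The 15 mitochondrial import genes had 1 higher and 4 lower (median −0.09), and the 17 genes of the tricarboxylic acid cycle 4 higher and 5 lower (median −0.22). The 3 adenine nucleotide carriers had 2 higher and 0 lower (median 2.01). Those 2 were barely expressed in wild type, *ant-1.3* at 0.599 CPM and *ant-1.4* at 0.162 CPM. The third, *ant-1.1*, had 2900 CPM in wild type and a log2 fold change of −0.05, and was not called. In *prg-1*, where 1.16% of all genes were called, 1 gene of all these lists was called, the import gene *timm-17B.2*, at 5.16. It was also called in *rpb-9*, with 4.41.

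In 2 pairs of subunit paralogs, picked after their values were seen, the genes moved in opposite directions in *rpb-9*. The complex V gene *asb-1*, known as the germline form of subunit b, was at −0.72 and its somatic paralog *asb-2* at 1.00. The complex I gene *gas-1* was at 1.70 and its paralog *nduf-2.2* at −0.40. All 4 were called in edgeR's test, as were 50.8% of all genes. Other like-named pairs of these lists went either way. Both *mai-1* (0.72) and *mai-2* (0.33) were called higher, and both *tufm-1* (−0.38) and *tufm-2* (−0.27) lower. In contrast, *idhg-2* was at 1.15 and *idhg-1* at −0.56.

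Markers of several tissues differed between the genotypes as well, beside 29.5% of all genes higher and 21.3% lower in *rpb-9*. In *rpb-9* libraries, 39 of 41 tested sperm markers were higher and 1 lower (median 2.63), 19 of 20 oocyte and early embryo markers lower and 0 higher (median −0.75), 18 of 25 germline markers lower and 0 higher (median −0.55), and 12 of 18 body wall muscle markers higher and 0 lower (median 0.68). Intestine markers went both ways, with 7 of 18 higher and 5 lower (median 0.36), and 4 of 18 neuron markers were higher and 1 lower (median 0.50). Relative to the wild-type mean, the median of the muscle markers was 0.29 in *rpb-9* replicate 1, against 0.81 and 0.87 in the other mutant libraries. That of the oocyte markers was −0.88, −0.72 and −0.72. In *prg-1*, 0 of 141 tested markers of these tissues were called in edgeR's test and 10 had an unadjusted p-value under 0.05, while DESeq2 called 3 intestine markers higher. The median of the sperm markers was 1.80, 1.53 and −1.75 in replicates 1 to 3, and that of the muscle markers 0.98, 0.81 and −0.36, the same library being low that was low for the respiratory subunits. The part of tissue composition in the members' values was not tested, and in whole animals fewer cells of a type and less RNA per cell cannot be told apart.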

How the data were processed

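The authors deposited expected counts per gene without normalization. They aligned whole reads to ce11, to which the sequence of the piRNA sensor had been added, using STAR with introns not allowed, so reads across exon junctions are missing, and counted exons with featureCounts, splitting multi-mapped reads into fractions. Columns named by strain were matched to genotypes by elimination, with the strain shared by the tables taken as wild type. Other tables were not used here.

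Rounded counts were scaled by TMM and fitted on genotype alone using edgeR 4.0.16 (R 4.3.3), whose quasi-likelihood F test gave the p-values. These were adjusted by Benjamini-Hochberg over all genes that had 10 or more counts in 3 or more libraries. Standard errors are the size of the log2 fold change over the square root of F. CPM per kb used the exon length of the table. The script was tested on simulated data. Coordinates are 1-based on WBcel235 (ce11).

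The members, the gene lists and the tests were chosen with earlier results of these data known. Named members are those past the threshold of the study, the 5 largest increases and decreases among called members, the highest level and the highest and lowest fold change of each class, and genes sharing a number; others were named after their values were seen, among them *mrps-24*, *asb-2* and the members called without *prg-1* replicate 3. Alternatives were DESeq2 1.42.0, DESeq2's size factors (RLE), library size alone, no filter, removal of ribosomal RNA and mitochondrial DNA genes, each library left out, and the replicate number as a block. The reported *prg-1* test did not pair libraries by number, and only the replicate block did. Same-numbered deviations correlated at 0.17, 0.35 and 0.44, and the others at −0.49 to 0.32. Wild-type replicate 1 correlated at 0.32 with *prg-1* replicate 2 and at 0.17 with replicate 1, so these values do not settle whether the numbers pair libraries. Figures used matplotlib 3.10.9.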

Additional observations from a re-analysis of the deposited data

How the results depend on the processing

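The *prg-1* table had 6099453 to 9881058 counts per library, of which 34.2% to 48.4% fell on ribosomal RNA genes, and a median standard error of 0.16 per member. With 3 libraries per genotype, counts of calls moved by over 1.5 times with single libraries, and 0 members passed the threshold of the study under every alternative in both comparisons. The cause of each change below was not tested.

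For *rpb-9*, higher and lower members numbered 1 and 30 with DESeq2, 1 and 31 with its size factors, 13 and 1 with library size alone, 5 and 11 with no filter, and 2 and 12 without ribosomal RNA genes. The shares of all genes called moved too, to 25.6% higher and 26.7% lower with DESeq2, 26.4% and 26.2% with its size factors, 39.5% and 6.49% with library size alone, 20.0% and 10.3% with no filter, and 30.5% and 20.2% without ribosomal RNA genes, from 29.5% and 21.3%. All 15 members called lower with TMM were among those called lower with DESeq2 and with its size factors. The median of the members moved to 0.09 with library size alone. Leaving out 1 library gave 1 to 7 higher and 3 to 60 lower members, and for *prg-1* 0 to 6 higher and 0 lower. The subunits minus ribosome difference of the medians lay between 0.39 and 0.47 under all alternatives in *rpb-9*, and between 0.10 and 0.40 in *prg-1* (0.24 as reported).

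The *rpb-9* replicate numbers share only a number, with correlations of 0.08, 0.08 and −0.05. The replicate block gave 2 higher and 10 lower members there, with 28.3% and 18.1% of all genes, and 0 and 0 in *prg-1*, with 3.01% and 1.83%. It changed no member's call in *prg-1*.

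Signs changed in 55 values of named members, none called in either fit. For *rpb-9* with library size alone these were *cox-19* 0.20, *mrpl-11* 0.04, *mrpl-13* 0.09, *mrpl-55* 0.25, *mrps-10* 0.02, *mrps-18.C* 0.10, *mrps-18A* 0.10, *mrps-18B* 0.16, *mrps-18C* 0.08, *mrps-6* 0.08, *nuo-1* 0.21, *nuo-3* 0.22 and *nuo-5* 0.09. With DESeq2 and with its size factors *atp-3* was −0.01, and with no filter *mrpl-55* was 0.01. With 1 library left out, the ranges were −0.21 to 0.10 for *cox-19*, −0.26 to 0.16 for *mrpl-55*, −0.19 to 0.04 for *mrps-18B*, −0.05 to 0.04 for *nuo-1*, −0.09 to 0.07 for *nuo-3* and −0.11 to 0.50 for *mrps-33*. For *prg-1* with library size alone, *mrpl-45* was 0.08, *mrps-18A* 0.07, *mrps-18C* 0.10 and *nuo-3* 0.06. With no filter, *atp-3* was −0.02, *mrps-11* −0.03 and *mrps-33* −0.04. With 1 library left out, the ranges were −0.14 to 0.08 for *mrps-18C*, −0.08 to 0.01 for *mrpl-45*, −0.09 to 0.01 for *mrps-18A*, −0.14 to 0.08 for *nuo-3*, −0.01 to 0.40 for *atp-2*, −0.06 to 0.28 for *atp-3*, −0.03 to 0.35 for *atp-4*, −0.02 to 0.47 for *cox-5B*, −0.13 to 0.63 for *cox-6C* and −0.07 to 0.14 for *mrps-33*.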

Other observations

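A look at the 250 bases upstream of the annotated start of each coding gene (WBcel235, both strands) was made after the values were known. For the 8 motifs looked up, the share of the 94 members with a match was 16% for TGATAA (26.8% of all coding genes), 2.13% for CACGTG (4.94%), 3.19% for CTGCGTC (3.95%), 9.57% for GCGCGC (3.28%), 1.06% for GGCGCGAA (0.446%), 6.38% for TTTTGCAG (4.01%), 1.06% for TGACGTCA (1.23%) and 3.19% for GACGCAGA (2.77%). CTGCGTC and GACGCAGA overlap on opposite strands, as do GCGCGC and GGCGCGAA in part. An open search over words of 8 bases was also made, and its results are not given, since they were picked from a very large number of words. Annotated starts of trans-spliced genes need not be transcription starts, matches are a description of letters, and no difference was tested.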
